A study of Mus musculus with 29 samples.

Results

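The lysyl oxidase family consists of 5 genes in the mouse, Lox, Loxl1, Loxl2, Loxl3 and Loxl4. They were taken by symbol from the 56748 genes counted in the aortic arch of Ercc1Δ/- mice and WT littermates. Each symbol matched a single Ensembl identifier, and all 5 genes passed the limit on low counts that left 12353 genes for testing. The study asked how the aorta changes in Ercc1Δ/- mice, which age prematurely because they lack much of a DNA repair endonuclease, and how dietary restriction (DR) affects these changes. WT (Ercc1+/+) and Ercc1Δ/- mice were compared at an age of 6 weeks on ad libitum feeding (AL), with 5 and 5 mice, at 22 weeks on AL, with 4 and 4 mice, and at 22 weeks on DR, with 5 and 5 mice. DR began at 7 weeks of age and reached 30% less food from 9 weeks. All mice were F1 hybrids of C57BL6J and FVB, the Ercc1Δ/- mice carry a Δ allele and a null allele in every cell of the body, each group held males and females, and each mouse gave 1 library of the whole arch.

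Lysyl oxidases are secreted copper enzymes that oxidise lysines of elastin and fibrillar collagens, so that neighbouring chains join into covalent crosslinks. Lox and Loxl1 are the short members, made as proenzymes and cleaved outside the cell, and they are known for elastic fibres, on which the stretch of the aortic wall depends: mice without Lox die around birth with aortic aneurysms. Loxl2, Loxl3 and Loxl4 carry scavenger receptor repeats ahead of the catalytic domain, and Loxl2 also acts on the collagen IV of basement membranes.

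The coding sequences of the canonical transcripts reflected this division. Translated, Lox has 411 codons and Loxl1 607, against 776, 754 and 757 codons in Loxl2, Loxl3 and Loxl4. Lox and Loxl1 were identical at 56.8% of aligned residues, Loxl2, Loxl3 and Loxl4 at 56.4% to 56.6%, and pairs across this division at 28.0% to 34.1%. What all 5 share is the catalytic core: 1 run of 13 codons translates identically in every member and holds the lysine that becomes part of the quinone cofactor. Its coding bases in Loxl1, Loxl2, Loxl3 and Loxl4 (GRCm39, coding strand, 5′ to 3′) are shown because they are the part that makes these genes a family. Capitals mark the 29 of 39 bases that are the same in the 4 genes.
Loxl1: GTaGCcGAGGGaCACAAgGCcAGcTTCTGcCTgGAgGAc
Loxl2: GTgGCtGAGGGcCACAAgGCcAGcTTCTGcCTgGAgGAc
Loxl3: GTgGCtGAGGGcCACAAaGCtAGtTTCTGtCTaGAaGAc
Loxl4: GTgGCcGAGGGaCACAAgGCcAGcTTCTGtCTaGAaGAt
The run lies in exon 4 of Loxl1 (chr9:58200910-58200948, minus strand), exon 11 of Loxl2 (chr14:69926538-69926576, plus strand), exon 11 of Loxl3 (chr6:83027158-83027196, plus strand) and exon 12 of Loxl4 (chr19:42587156-42587194, minus strand). The genes themselves are Lox (ENSMUSG00000024529), Loxl1 (ENSMUSG00000032334) at chr9:58195014-58220495, Loxl2 (ENSMUSG00000034205) at chr14:69846209-69933283, Loxl3 (ENSMUSG00000000693) at chr6:83011152-83029543 and Loxl4 (ENSMUSG00000025185) at chr19:42580711-42601252. The longest identical stretch between any pair of canonical transcripts was 32 bases, between Lox and Loxl1, so the genes offer few places where a read could belong to more than 1 of them. All 5 genes share exon bases with a gene on the opposite strand, from 30 in Lox to 943 between Loxl2 and R3hcc1 and 1182 between Loxl3 and Htra2. Reads were counted over the whole gene, introns included, and over this span the shared stretches were longer, at 1444 bases in Lox, 1947 between Loxl3 and Htra2, 25482 between Loxl1 and the lncRNA gene Gm57034 and 74527 between Loxl2 and the lncRNA gene Gm27177. The strand setting of the counting is not given in the sources used here, so reads from such stretches could be assigned to either gene or to neither. R3hcc1 and Htra2 were not called in any comparison, with log2 changes of 0.13 ± 0.15 (SE) for R3hcc1 and 0.00 ± 0.13 for Htra2 between the genotypes at 22 weeks on AL. Gm57034 covers the whole span of Loxl1. The part of Gm57034 and Gm27177 in the counts of Loxl1 and Loxl2 was not tested.

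Counts on genes totalled 921167 to 9616382 per library. They moved with genotype at 22 weeks: totals were 3903589 to 9616382 in WT and 1294980 to 3855444 in Ercc1Δ/- mice on AL, and 2660422 to 6124471 and 921167 to 2572523 on DR, without overlap on either diet. The WT library 003 (22 weeks, AL) had 400410 counts and was left out. Ercc1 transcripts, which include those of the Δ allele, averaged 101.5, 114.7 and 114.5 normalised counts in the WT groups (6 weeks AL, 22 weeks AL, 22 weeks DR) and 41.78, 58.94 and 57.03 in the matching Ercc1Δ/- groups. All 8 smooth muscle markers, which define the media of the aorta, were detected in every library.

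Per kb of exon, Loxl1 was the most abundant member in all 6 groups and Loxl4 the least. On this scale, Loxl1 averaged 225.7 to 517.9 normalised counts (counts scaled to the mean library of 3683502 counts), Lox 90.62 to 168.4, Loxl3 96.97 to 117.8, Loxl2 15.27 to 42.0 and Loxl4 4.02 to 5.99. Loxl1 stood clear of the next gene in each group, and so did Loxl2 of Loxl3 and Loxl4 of Loxl2. Lox and Loxl3 overlapped in 5 of 6 groups, the exception being Ercc1Δ/- mice of 6 weeks, where Lox was the higher, and in WT mice of 22 weeks on AL the mean of Loxl3 was above that of Lox. The summed level of the family per kb was 765.3 ± 76.4 (SD, n = 5) in WT and 828.8 ± 106 (n = 5) in Ercc1Δ/- mice of 6 weeks. At 22 weeks it was 657.7 ± 23 (n = 4) in WT and 556.1 ± 55.2 (n = 4) in Ercc1Δ/- mice on AL, and 574.5 ± 33 (n = 5) and 472.8 ± 17.6 (n = 5) on DR. At 22 weeks each Ercc1Δ/- mouse was thus below each WT mouse of its diet, with 488.7 to 623.4 against 632.8 to 678.1 on AL and 447.1 to 492.2 against 526.9 to 609.0 on DR. Of all tested genes taken singly, 9.63% on AL and 5.2% on DR were lower without overlap. The difference in Loxl1 alone, with means of 320.5 against 423.2 and 225.7 against 341.0, was as large as that in the sum. The order depended on the length used. Per kb of gene span, which includes the introns over which reads were also counted, Loxl1 and Lox overlapped in 4 of 6 groups, Lox was first in Ercc1Δ/- mice on DR, and the mean of Loxl4 was above that of Loxl2 in both Ercc1Δ/- groups of 22 weeks.

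**Figure D1:**
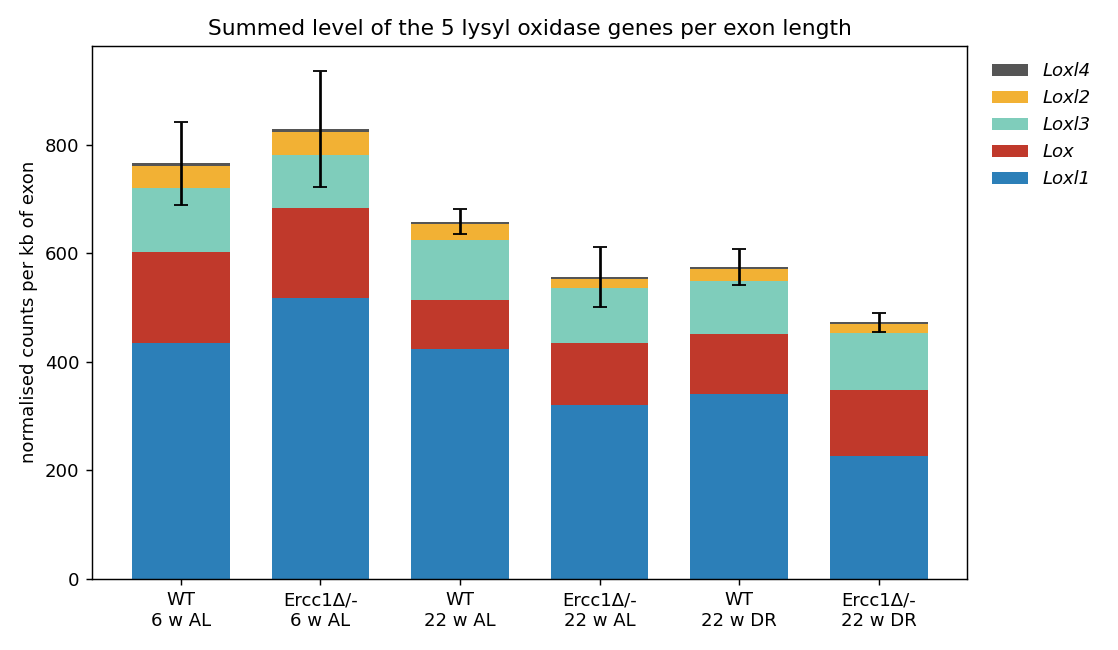
Stacked bars show the mean level of each lysyl oxidase gene (vertical axis, normalised counts per kb of exon) in the 6 groups, and the black bars the SD of the summed level over the 4 or 5 mice of a group. The Loxl1 part is the tallest in every bar, and the sum runs from 828.8 in Ercc1Δ/- mice of 6 weeks to 472.8 in Ercc1Δ/- mice of 22 weeks on DR.

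All called changes in the family were decreases, and they concerned Lox, Loxl1 and Loxl2. A gene was called when the Benjamini-Hochberg adjusted p of edgeR's quasi-likelihood test was at most 0.05 and the change at least 1.2-fold (0.263 on the log2 scale), with sex in the model. Between Ercc1Δ/- and WT mice of 6 weeks edgeR called 0 of 5 members, where it called 1.71% of all tested genes. DESeq2 called 0 as well, and 1 member had an unadjusted p under 0.05. At 22 weeks on AL, 1 member (Loxl2) was called lower in Ercc1Δ/- mice, where 6.16% of all genes were called lower. On DR, 1 member (Loxl1) was called lower, where 7.03% of all genes were. With age, 1 member (Lox) was called lower in WT mice, where 0.138% of all genes were, and 3 members (Lox, Loxl1, Loxl2) were called lower in Ercc1Δ/- mice, where 2.55% of all genes were. Lox was among the 12 genes called lower with age in both genotypes, 0.0971% of those tested. DR against AL gave 0 called members in WT mice, where edgeR called 1.3% of all genes, with 0 by DESeq2 and 2 at an unadjusted p under 0.05, and 1 lower member (Loxl1) in Ercc1Δ/- mice, where 0.996% of all genes were called lower. The genotype by age interaction was called for 1 member (Loxl2, 0.842% of all genes) and the genotype by diet interaction for 0 (0.0971% of all genes, 0 by DESeq2, 1 member at an unadjusted p under 0.05). Between males and females edgeR called 0 members, where it called 0.186% of all genes, with 0 by DESeq2 and 1 (Loxl3) at an unadjusted p under 0.05.

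**Figure D2:**
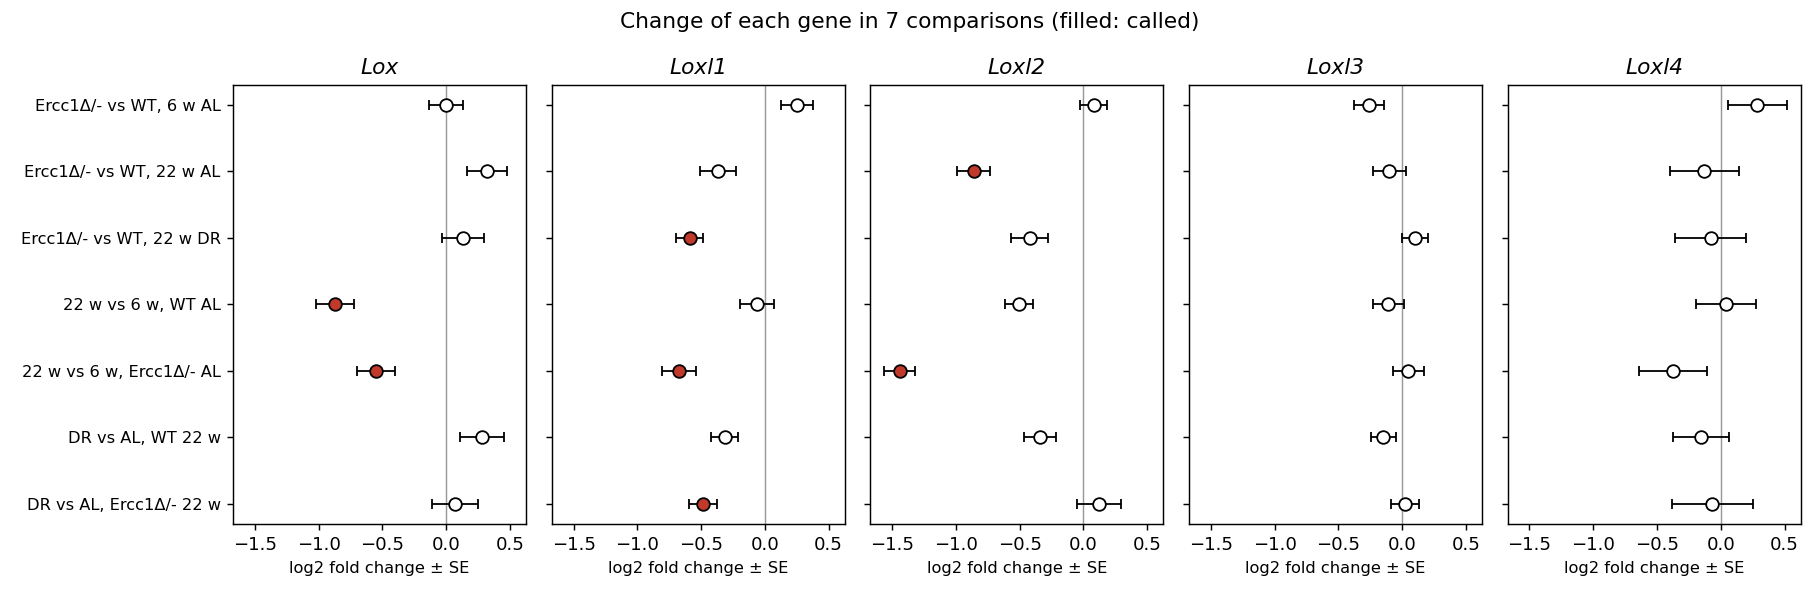
Each panel shows a lysyl oxidase gene, with the log2 fold change of 7 comparisons on the horizontal axis, bars for the SE of the edgeR fit, and filled points for called changes. The 7 filled points all lie left of zero, the farthest being Loxl2 with age in Ercc1Δ/- mice at -1.44.

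Lox, whose product crosslinks both elastin and collagen, was lower at 22 than at 6 weeks in both genotypes. In WT mice of 6 weeks on AL, replicates 001, 009, 011, 019 and 024 had 720.5, 852.2, 1000.4, 899.1 and 680.1 normalised counts, and in those of 22 weeks, replicates 012, 018, 020 and 025 had 611.2, 415, 329 and 431.8. All 4 older WT mice were thus below the lowest younger one, as held for 2.1% of all genes, with 012 the highest of the 4. Lox fell by 0.87 ± 0.15 (SE) on the log2 scale in WT mice, a 1.83-fold change (edgeR's quasi-likelihood test, Benjamini-Hochberg adjusted p = 0.00894), and ranked 10 by p among the 12353 genes. In Ercc1Δ/- mice of 6 weeks, replicates 002, 008, 015, 023 and 027 had 820.1, 907.8, 729.2, 836 and 791.6 normalised counts, and in those of 22 weeks, replicates 004, 005, 013 and 026 had 594.3, 606.3, 605.5 and 445.4. Here too the ages did not overlap, as held for 3.38% of all genes, with 3 older mice close together and 026 below them. The fall was 0.55 ± 0.15 on the log2 scale (edgeR, adjusted p = 0.0323). The age change of Lox did not differ detectably between the genotypes (interaction 0.32 ± 0.21, edgeR, adjusted p = 0.618). The WT call was lost without WT replicate 025 (-0.86, edgeR, adjusted p = 0.051) and when only the WT groups were fitted (adjusted p = 0.0745), and the Ercc1Δ/- call without any 1 of replicates 002, 004, 005, 008, 023 and 026, with log2 changes of -0.58 to -0.46 and adjusted p of 0.0567 to 0.12.

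Between the genotypes and diets Lox was not called. On DR, WT replicates 007, 010, 017, 021 and 028 had 622.1, 490.6, 505.8, 531.1 and 555.4 normalised counts and Ercc1Δ/- replicates 006, 014, 016, 022 and 029 had 785.9, 716.3, 554.2, 452.8 and 489.7. The Ercc1Δ/- mice on DR spread more widely than the WT mice and ranged both above and below them. The difference between Ercc1Δ/- and WT mice was -0.001 ± 0.14 at 6 weeks, 0.32 ± 0.16 at 22 weeks on AL (edgeR, adjusted p = 0.207) and 0.13 ± 0.17 on DR. Without WT replicate 012, the highest WT mouse of 22 weeks on AL, Lox was called higher in Ercc1Δ/- mice at 22 weeks on AL (0.49, edgeR, adjusted p = 0.0226).

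**Figure D3:**
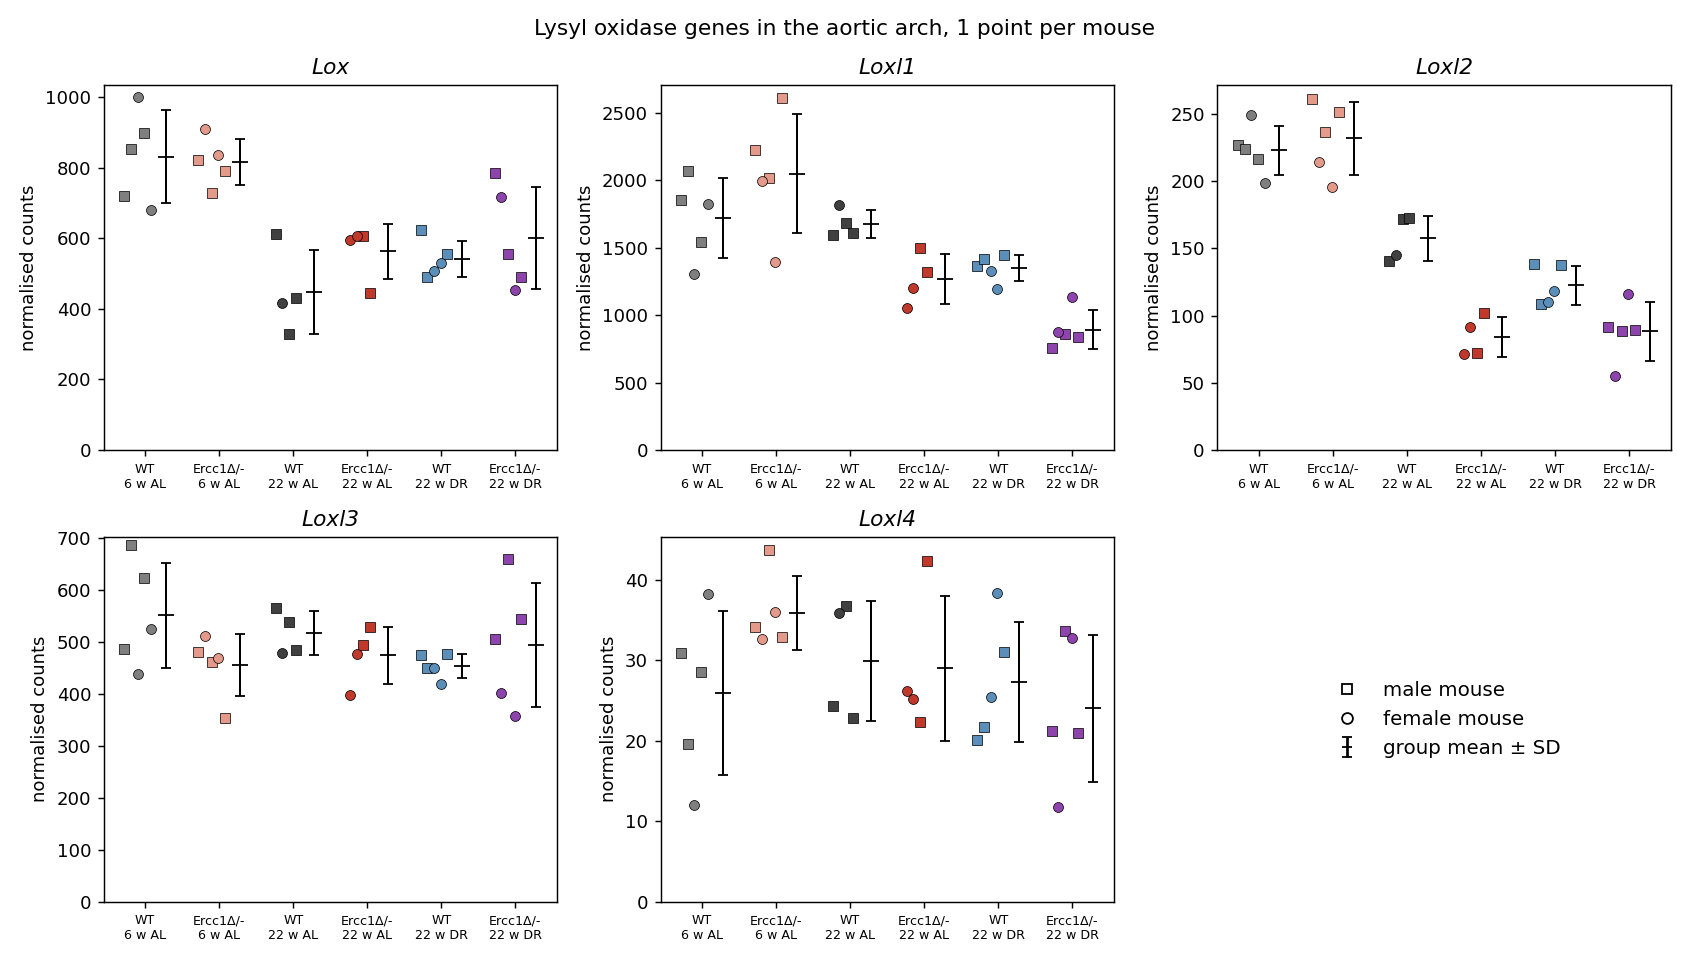
Normalised counts (vertical axes, each starting at zero) of the 5 lysyl oxidase genes in each mouse of the 6 groups, squares for males and circles for females, with the group mean and SD beside the points. Lox is lower in all 22-week AL mice than in the 6-week mice of the same genotype, Loxl1 and Loxl2 are lower in all Ercc1Δ/- than in all WT mice of 22 weeks on AL, and Loxl3 and Loxl4 overlap between the genotypes in every condition.

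Loxl1, which is tethered to elastic fibres and needed to renew them in adult tissue, was lower in Ercc1Δ/- than in WT mice at 22 weeks on DR. There, WT replicates 007, 010, 017, 021 and 028 had 1361.9, 1416.6, 1329.9, 1194 and 1442.3 normalised counts and Ercc1Δ/- replicates 006, 014, 016, 022 and 029 had 755.4, 873.7, 858.8, 1137.4 and 838.3. All Ercc1Δ/- mice were below all WT mice, as held for 5.2% of genes, although replicate 022 came near the lowest WT mouse. Loxl1 fell by 0.59 ± 0.10 (SE) on the log2 scale, 1.5-fold (edgeR, adjusted p = 3.67e-04), and did so without any single mouse (-0.71 to -0.52). On AL, WT replicates 012, 018, 020 and 025 had 1590.2, 1818, 1679.2 and 1608.8 normalised counts and Ercc1Δ/- replicates 004, 005, 013 and 026 had 1051.5, 1203.1, 1495.6 and 1321.4. The groups did not overlap here either, as held for 9.63% of genes in this direction. The difference of -0.36 ± 0.14 missed the threshold (edgeR, adjusted p = 0.0945) and passed it when only these groups were fitted (-0.40, adjusted p = 0.0211) or when no genes were filtered (-0.43, adjusted p = 0.0449). The genotype by diet interaction was -0.17 ± 0.15 (edgeR, adjusted p = 0.811), so the genotype difference was not shown to depend on diet.

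Loxl1 was also called lower with age and with DR in Ercc1Δ/- mice. Among mice of 6 weeks, WT replicates 001, 009, 011, 019 and 024 had 1851.8, 2067.7, 1305.7, 1544.2 and 1821.6 normalised counts and Ercc1Δ/- replicates 002, 008, 015, 023 and 027 had 2225.4, 1996.1, 2014.1, 1395.1 and 2612.7. The genotypes overlapped at this age, with a difference of 0.25 ± 0.12 (edgeR, adjusted p = 0.406). With age Loxl1 fell by 0.68 ± 0.13 on the log2 scale in Ercc1Δ/- mice (edgeR, adjusted p = 0.00338), where only replicate 023 of the 6-week mice lay within the range of the older mice, and changed by -0.06 ± 0.13 in WT mice (adjusted p = 0.96). The interaction, -0.62 ± 0.19, was not called (edgeR, adjusted p = 0.151), but was without Ercc1Δ/- replicate 023 (-0.73, adjusted p = 0.0445). With DR Loxl1 fell by 0.49 ± 0.11 in Ercc1Δ/- mice of 22 weeks (edgeR, adjusted p = 0.0224) and the difference was -0.31 ± 0.11 in WT mice (adjusted p = 0.167), in whom all mice on DR were below all on AL, as held for 2.68% of genes. The Ercc1Δ/- groups overlapped through replicate 022, and the call was lost without replicate 013 (-0.39, edgeR, adjusted p = 0.085), 014 (-0.48, 0.0529), 026 (-0.46, 0.0707) or 029 (-0.46, 0.0678), with library 003 added (0.0584), and with only the Ercc1Δ/- groups (0.0904) or all 6 groups (0.0556) in the fit.

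Loxl2 had the greatest called change of the 5 genes, with age in Ercc1Δ/- mice. At 6 weeks of age, WT replicates 001, 009, 011, 019 and 024 had 227.3, 223.7, 249.1, 216.9 and 198.4 normalised counts and Ercc1Δ/- replicates 002, 008, 015, 023 and 027 had 261.4, 214.1, 236.6, 195.8 and 251.9. At 22 weeks on AL, WT replicates 012, 018, 020 and 025 had 140.7, 145.1, 171.8 and 172.4 and Ercc1Δ/- replicates 004, 005, 013 and 026 had 71.24, 91.41, 72.55 and 102. The genotypes overlapped at 6 weeks and were separate at 22 weeks, and each older group was separate from the younger one of its genotype. As lower values without overlap, this held for 9.63% of all genes between the genotypes at 22 weeks on AL, 2.1% with age in WT mice and 3.38% with age in Ercc1Δ/- mice. Between the genotypes Loxl2 differed by 0.08 ± 0.11 (SE) on the log2 scale at 6 weeks (edgeR, adjusted p = 0.827) and fell by 0.86 ± 0.13 in Ercc1Δ/- mice at 22 weeks on AL, 1.82-fold (edgeR, adjusted p = 1.19e-04), to 53.5% of the WT mean. This held without any single mouse (-0.96 to -0.79). With age it fell by 1.44 ± 0.12 in Ercc1Δ/- mice, 2.72-fold (edgeR, adjusted p = 1.20e-07), ranking 7 by p among all genes, and the change in WT mice was -0.50 ± 0.11 (adjusted p = 0.0568), which DESeq2 called (adjusted p = 0.00238). The age change differed between the genotypes by -0.94 ± 0.17 (interaction, edgeR, adjusted p = 0.00644), ranking 21 of all genes.

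The depth of the libraries limits what can be said of Loxl2. It had 14 to 488 reads per library, and the Ercc1Δ/- mice of 22 weeks on AL had 26 to 87. With all libraries thinned to 921167 counts, the genotype difference at 22 weeks on AL was -0.66 (edgeR, adjusted p = 0.0527), the interaction -0.93 (adjusted p = 0.125) and the age change in Ercc1Δ/- mice -1.41 (adjusted p = 5.42e-06). On DR, WT replicates 007, 010, 017, 021 and 028 had 138.3, 108.9, 110, 118.7 and 137.5 normalised counts and Ercc1Δ/- replicates 006, 014, 016, 022 and 029 had 91.77, 55.1, 88.76, 115.9 and 89.55. Only Ercc1Δ/- replicate 022 reached into the WT range. The difference of -0.42 ± 0.15 missed the threshold (edgeR, adjusted p = 0.0568), and passed it without replicate 022 (-0.61, adjusted p = 0.00707), with all 6 groups in the fit (-0.43, 0.0322) and without a filter on low counts (-0.47, 0.037). DR against AL gave -0.34 ± 0.13 in WT mice (edgeR, adjusted p = 0.224), with no overlap between the diets, as held for 2.68% of all genes, and 0.12 ± 0.17 in Ercc1Δ/- mice (adjusted p = 0.799), and the interaction, 0.46 ± 0.21, was not called (adjusted p = 0.551).

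RNA levels of cell type markers differed between the groups, also between the genotypes at 6 weeks, where 0 of 5 members were called. At that age 2 of 8 macrophage markers were called higher in Ercc1Δ/- mice and 2 of 8 smooth muscle markers lower. Of all genes, 0.575% were called higher and 1.13% lower. All 8 markers of each list went in these directions, with median log2 changes of 0.97 and -0.30. Summed over 8 smooth muscle markers, the level was 117299.8 to 140575.1 normalised counts in WT and 61678.9 to 95768.7 in Ercc1Δ/- mice of 22 weeks on AL. Of the 8, 6 were called lower, where 6.16% of all genes were, and 0 higher. On DR it was 121635.8 to 158217.9 and 86432.6 to 93279.8, with 7 of 8 called lower, where 7.03% of all genes were. Summed over 8 macrophage markers, it was 890.6 to 1319.4 in WT and 2062.1 to 3802.5 in Ercc1Δ/- mice on AL, and 536.5 to 1028.6 and 1322.3 to 4536.5 on DR. Of these markers 7 of 8 were called higher on AL, where 5.87% of all genes were, and 5 of 8 on DR, where 5.93% were. With age in Ercc1Δ/- mice, 1 of 8 smooth muscle markers was called lower, where 2.55% of all genes were. All 8 were lower, 5 of them at an unadjusted p under 0.05. Of the macrophage markers 5 of 8 were called higher, where 2.11% of all genes were. In WT mice 0 of either list were called with age. The median log2 changes of the smooth muscle and macrophage lists were -0.30 and 1.02 in Ercc1Δ/- mice and 0.004 and 0.45 in WT mice. With DR, 4 of the 8 macrophage markers were called lower in Ercc1Δ/- mice, where 0.996% of all genes were. In WT mice 1 was called lower, where 0.955% of all genes were, and all 8 were lower. The medians were -0.83 in Ercc1Δ/- and -0.40 in WT mice. The genotype by diet interaction was called for 0 of the 8 (0.0971% of all genes), with 2 at an unadjusted p under 0.05. Of the 8 fibroblast markers 1 was called higher and 1 lower between the genotypes at 22 weeks on AL, where 5.87% and 6.16% of all genes were. On DR, 5 of 8 endothelial markers were called higher in Ercc1Δ/- than in WT mice, where 5.93% of all genes were. Pearson's r over the 28 mice with the mean of the smooth muscle markers was 0.36 for Loxl1 and 0.39 for Loxl2. After removal of the group means it was 0.23 and -0.07. With the mean of the macrophage markers r was -0.32 and -0.46, and -0.18 and 0.07 after this removal. The part of these markers in the changes of Loxl1 and Loxl2 was not tested. In bulk tissue, fewer cells of a type and less RNA per cell cannot be told apart.

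Loxl3 and Loxl4 were not called in any comparison. Loxl3, which is known from crosslinking in the palate and spine, had 353.6 to 685.2 normalised counts over the 28 mice, and its group means ran from 453.5 ± 23.3 (SD, n = 5) in WT mice on DR to 550.9 ± 101 (n = 5) in WT mice of 6 weeks. Over genotypes, ages and diets its log2 changes lay between -0.26 ± 0.12, between the genotypes at 6 weeks (edgeR, adjusted p = 0.333), and 0.10 ± 0.10, between the genotypes on DR. In WT mice all 5 mice on DR were below all 4 on AL, as held for 2.68% of all genes, with a difference of -0.15 ± 0.10 (edgeR, adjusted p = 0.584). Loxl3 was also the member nearest to a sex difference, at 0.19 ± 0.07 in males against females (edgeR, adjusted p = 0.485). Loxl4 had 3 to 94 reads per library and 11.81 to 43.75 normalised counts, so that its SD reached 39.4% of the mean in WT mice of 6 weeks, and its log2 changes over genotypes, ages and diets, -0.38 to 0.29, had an SE of 0.22 to 0.32. A change of 1.2-fold in Loxl4 was therefore not detectable at this depth.

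The genes for the proteins that lysyl oxidases crosslink were also lower at 22 weeks. Of 8 substrate genes, for elastin and chains of collagens I, III, IV and V, 8 were called lower with age in Ercc1Δ/- mice, with a median log2 change of -1.26 against 0.01 over all genes, and 4 were called lower in WT mice, with a median of -0.67, or 6 by DESeq2. Of all genes, edgeR called 2.55% lower with age in Ercc1Δ/- and 0.138% in WT mice. Elastin (Eln) averaged 21516.3 ± 5096 (SD, n = 5) normalised counts in WT and 43114.8 ± 23269 (n = 5) in Ercc1Δ/- mice of 6 weeks, and 13279.2 ± 1562 (n = 4) and 11049.5 ± 1943 (n = 4) at 22 weeks on AL. Its spread was widest in young Ercc1Δ/- mice, which ranged from 15353.3 to 79673.8. Eln fell by 1.91 ± 0.31 on the log2 scale with age in Ercc1Δ/- mice (edgeR, adjusted p = 0.00216), and the change was -0.72 ± 0.30 in WT mice (adjusted p = 0.498). Col3a1, a chain of vessel wall collagen III, fell by 2.25 ± 0.18 and 0.98 ± 0.17 (adjusted p = 1.20e-07 and 0.013), with an interaction of -1.28 ± 0.24 (adjusted p = 0.0109). Col1a2, of collagen I, also had a called interaction (-0.88 ± 0.18, edgeR, adjusted p = 0.0167). Thus 2 of 8 substrates and Loxl2 fell further with age in Ercc1Δ/- than in WT mice. Of all genes, edgeR called this interaction for 0.842%. DESeq2 called it for 4 of the 8 substrates. The number called lower with age was 8 in each fit that left out a mouse in Ercc1Δ/- mice. In WT mice it was 2 without replicate 001, 009 or 020 and 1 without 012 or 025, and 2 without the sex term. The substrates with a called interaction were 1 without Ercc1Δ/- replicate 004 or WT replicate 018 and 5 without Ercc1Δ/- replicate 023.

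**Figure D4:**
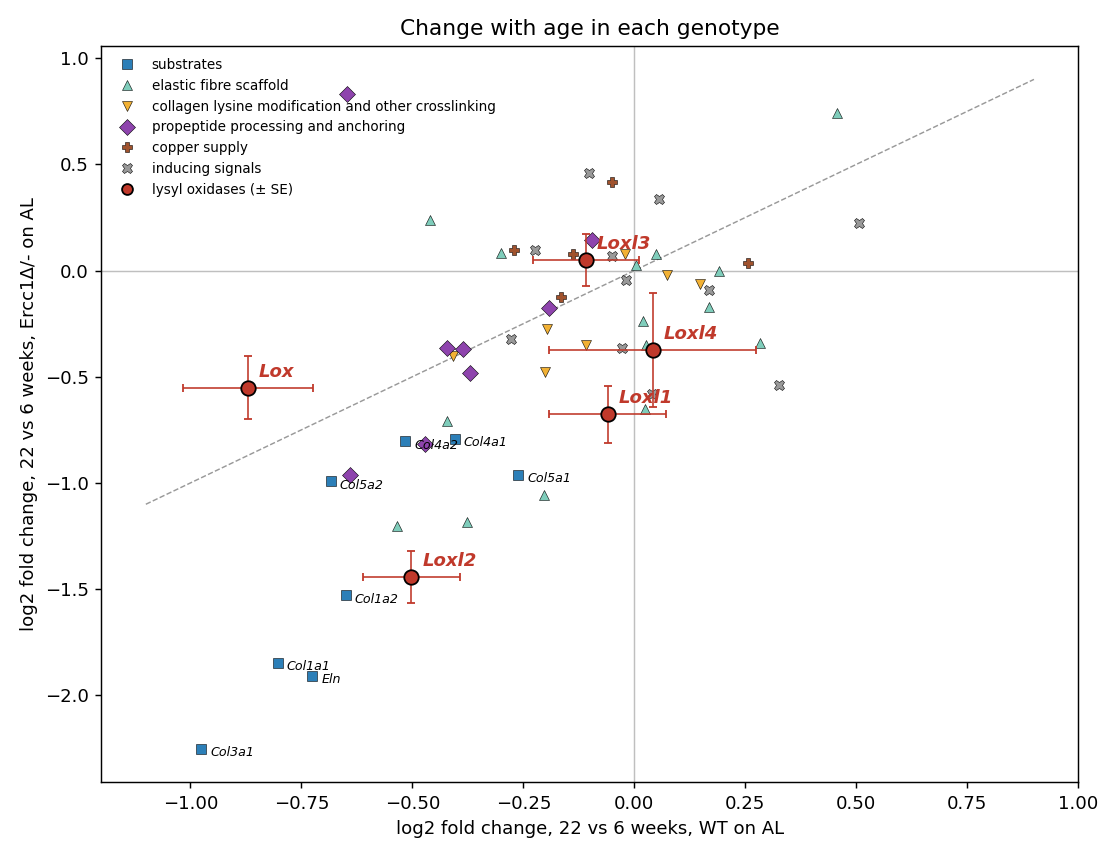
The log2 fold change between 22 and 6 weeks on AL in WT mice (horizontal axis) and in Ercc1Δ/- mice (vertical axis) is plotted for the 5 lysyl oxidases, with bars for the SE, and for the tested genes of 6 pathway lists, and the dashed line marks equal change. All 8 substrates and Loxl2 lie below the line, and Lox lies above it at -0.87 in WT and -0.55 in Ercc1Δ/- mice.

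Between the genotypes at 22 weeks on AL, 6 of 8 substrates were called lower in Ercc1Δ/- mice, where 6.16% of all genes were, with a median of -0.48 against 0.03. The 4 with the smallest p were Col1a2 (-0.66), Col4a1 (-0.48), Col4a2 (-0.45) and Col3a1 (-0.66), the Col4 genes coding for basement membrane collagen, while Eln was at -0.19 ± 0.32 and not called. Without Ercc1Δ/- replicate 004 or WT replicate 018, or with library 003 added, 3 were called. On DR, 4 of 8 were called lower (median -0.35), where 7.03% of all genes were, and 2 with library 003 added. At 6 weeks edgeR called 0 of 8 (median 0.22, 3 at an unadjusted p under 0.05), where it called 1.71% of all genes. DESeq2 called 2 higher in Ercc1Δ/- mice, and Eln was at 0.99 ± 0.28 (edgeR, adjusted p = 0.108). DR lowered 3 of 8 in WT mice, Col1a1 (-0.70), Col3a1 (-0.71) and Col1a2 (-0.40), where 0.955% of all genes were called lower. In Ercc1Δ/- mice edgeR and DESeq2 called 0 with DR, and 1 had an unadjusted p under 0.05. The WT count was 1 without replicate 017, 018, 020 or 021 and 0 with library 003 or with all 6 groups in the fit.

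Of 16 genes for the elastic fibre scaffold, 15 were tested. In Ercc1Δ/- mice of 22 weeks on AL, 5 were called lower than in WT mice, where 6.16% of all genes were, the 4 with the smallest p being Mfap4 (-0.64), Fbln5 (-0.68), Ltbp1 (-0.58) and Ltbp4 (-0.60). Fbln5 codes for fibulin-5, which brings Loxl1 to elastin, and Ltbp1 and Ltbp4 for proteins that hold latent TGF-β in the matrix. Ltbp2, whose product binds fibrillin, was called higher (0.37). On DR 6 were called lower, where 7.03% of all genes were, Fbln5 (-0.66), Ltbp1 (-0.52), Mfap4 (-0.56) and Efemp2 (-0.48) leading. Efemp2 codes for fibulin-4, which binds Lox, and it was also lower on DR than on AL in Ercc1Δ/- mice (-0.49 ± 0.10, edgeR, adjusted p = 0.0103). With age 5 fell in Ercc1Δ/- mice, where 2.55% of all genes did, with Mfap5 (-1.20), Mfap4 (-1.06) and the fibrillin gene Fbn1 (-1.18) leading, where in WT mice edgeR called 0, DESeq2 called 2 lower and 4 had an unadjusted p under 0.05. The genotype by age interaction was called for 4, where 0.842% of all genes were. Mfap4 (-0.85), Fbn1 (-0.80) and Fbln5 (-0.68) had the greater fall in Ercc1Δ/- mice, and Ltbp2 (0.70) went in the other direction. Without Ercc1Δ/- replicate 004 or 008 or WT replicate 018 or 020, the number with a called greater fall was 1 in place of 3.

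Some genes that act on the enzymes, or on the same substrates, were called as well. Of 8 tested genes for processing and anchoring of the proenzymes, 4 were called lower with age in Ercc1Δ/- mice, where 2.55% of all genes were. Among them were Bmp1, which codes for the protease that cleaves pro-Lox (-0.48 ± 0.10, edgeR, adjusted p = 0.00338), and Adamts2 (-0.82), for a protease that trims procollagen. In WT mice 0 were called, but all 8 were lower, 5 at an unadjusted p under 0.05. The median was -0.40 in WT and -0.37 in Ercc1Δ/- mice. Bmp1 was at -0.37 and Adamts2 at -0.47 in WT mice, and neither interaction was called (-0.11 and -0.35, edgeR, adjusted p = 0.814 and 0.381). At 22 weeks on AL, Postn, for periostin, a matrix protein that binds the Bmp1 protease, was called lower in Ercc1Δ/- mice (-0.38) and Thbs1, for thrombospondin-1, higher (1.45 ± 0.38, edgeR, adjusted p = 0.02). With DR, Pcolce, whose product speeds the cleavage of procollagen, was called lower in both WT (-0.41) and Ercc1Δ/- mice (-0.58). Of 5 tested copper genes, 2 were called higher in Ercc1Δ/- than in WT mice of 22 weeks on AL, where 5.87% of all genes were, the copper importer Slc31a1 (0.64) and the chaperone Atox1 (0.72), and Atp7a, which loads copper into lysyl oxidases, was at 0.23 ± 0.48. Of 7 tested genes for lysine or proline modification and other crosslinking, 2 were called lower in Ercc1Δ/- mice of 22 weeks on AL, where 6.16% of all genes were. These were the transglutaminase gene Tgm2 (-0.54) and Crtap (-0.29), whose product acts with that of P3h1 on prolines. On DR 4 were, where 7.03% of all genes were, the lysyl hydroxylase gene Plod2 (-0.38) and the prolyl hydroxylase gene P3h1 (-0.34) besides these. Of 11 genes of the signalling that induces lysyl oxidases, its inhibitor gene Smad7 included, Tgfb3 (-0.69) and Tgfb2 (-0.58) were called lower on AL. On DR 3 were, the addition being Smad7 (-0.73), whose product restrains TGF-β signalling. The shares over all genes were again 6.16% and 7.03%. At 6 weeks, where 1.71% of all genes were called, the called genes of all these lists were Mfap5 (0.45), Tgm2 (-0.45), Postn (-0.39) and Ccn2 (-0.88). Tgfb1, the receptors Tgfbr1 and Tgfbr2, and Hif1a were not called between the genotypes at any age or diet.

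Over the 28 libraries, the 3 genes most like each member by Pearson's r of log2 CPM (reads scaled by library size) were found among all tested genes. For Loxl1 they were Rcn3 (0.937), Ltbp3 (0.936) and Clec11a (0.919), and after removal of the group means r was still 0.827, 0.815 and 0.69. For Loxl2 they were the collagen genes Col4a5 (0.939), Col15a1 (0.918) and Col1a2 (0.912). With group means removed, r for Loxl2 dropped to 0.281, 0.513 and 0.13, so the likeness lay mainly between groups. The nearest genes to Lox were Aamdc (0.735), Dcaf6 (0.699) and Bche (0.691), to Loxl3 Med15 (0.695), Gabbr1 (0.694) and Zfp39 (0.683), and to Loxl4 Kat5 (0.77), Dnai4 (0.753) and Mageh1 (0.736). With group means removed, r was 0.641, 0.435 and 0.447 for Lox, 0.726, 0.697 and 0.731 for Loxl3 and 0.824, 0.735 and 0.688 for Loxl4. The nearest genes depended on the measure. By Spearman's rank correlation those of Lox ranked 4, 2 and 12, those of Loxl3 30, 5 and 1 and those of Loxl4 22, 72 and 68. Within the family r was highest for Loxl1 and Loxl2 (0.79), and 0.27 with group means removed, where Loxl2 and Loxl4 had 0.34. Lox had r of 0.21 with Loxl1, 0.43 with Loxl2 and -0.26 with Loxl4, and within groups -0.39, -0.35 and -0.66. The points of each r share library, depth and tissue composition. Against the log2 total count, r ran from -0.32 for Lox to 0.45 for Loxl1.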

How the data were processed

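Total RNA was isolated from the aortic arch of 29 mice and mRNA was sequenced from strand-marking libraries (NEBNext Ultra II Directional) with unique molecular identifiers. Per the labels and the study's methods, the authors trimmed reads with fastp, aligned them to mm39 with STAR 2.7.10a, removed duplicates with UMI-tools 1.1.2 and counted reads over whole gene bodies of Ensembl release 107 with htseq-count 2.0.2. The deposited table gives raw whole-number counts for every gene and mouse. The 5 lines of unassigned reads (no feature, 7.27% to 10.1% of counted reads; ambiguous, 1.4% to 1.82%) were kept out of library sizes and tests.

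Gene names, lengths and positions came from the GENCODE M39 annotation of GRCm39, later than the authors' release, and 56017 of 56748 identifiers had a symbol. The 12353 tested genes exceeded 10 counts in over 10 of the 28 samples. edgeR 4.0.16 in R 4.3.3 was used with TMM factors and robust quasi-likelihood fits of group and sex, without sample 003, which the study also omitted. Genotype on AL, age and their interaction came from the 18 AL samples, genotype on DR, diet and their interaction from the 18 samples of 22 weeks, and sex from all 28. Comparisons of 1 fit therefore share samples, as do genotype at 22 weeks on AL and both age changes. SE values are the log2 change divided by the square root of F. Normalised counts are counts per TMM-scaled library of tested genes times 3683502, the mean of these libraries. Figures and summaries were made with Python 3.11.15. On simulated counts the fit was tested with 200 genes changed 3-fold.

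The members and the lists, which were written from general knowledge of the pathway, were chosen with earlier results of these data known. All members are reported, each list is given by counts, and at most 4 called genes with the smallest p, genes at a list's extreme and genes whose role bears on a member are named. The last of these were chosen after their values were seen. Alternatives were DESeq2 1.42.0, RLE normalization, testing all genes with a count, adding sample 003, dropping the sex term, other sets of groups in the fit, thinning to the smallest library, leaving out each mouse, other lengths and measures of likeness and, chosen after seeing the data, the earlier dispersion method of edgeR. Each replicate is 1 mouse.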

Additional observations from a re-analysis of the deposited data

Results flagged for a closer look

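Among Ercc1Δ/- mice of 22 weeks on AL, Lox was 445.4 normalised counts in replicate 026, against 594.3 in the next of the 4 mice, and this gap was 0.926 of the range of the group. It was the only such gap among the 30 sets of values examined (5 genes in 6 groups). The limit for flagging is one that chance passes in about 1 of 20 sets, so 1 flagged set among 30 was not unusual. The chance of a gap as large as this one was not computed, and the 30 sets share libraries. Without replicate 026 the fall of Lox with age in Ercc1Δ/- mice was no longer called (-0.46, edgeR, adjusted p = 0.12). Its Loxl1, Loxl2 and Loxl3 values lay within or above those of the other 3 mice.

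The age change of Loxl2 differed between the genotypes, by -0.94 on the log2 scale (edgeR, adjusted p = 0.00644), with 26 to 87 reads per library in the older Ercc1Δ/- mice.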

How the results depend on the processing

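No paired analysis was possible because each mouse gave 1 sample and the sample numbers are not shared between groups. With respect to the number of called members (6 comparisons with any), the count at 22 weeks on AL (1) became 2 without a filter on low counts or with only the compared groups in the fit, and 0 after thinning, with 1 to 2 when a mouse was left out. On DR (1) it became 2 without the filter or with all 6 groups in the fit, and 1 to 2 when a mouse was left out. With age in WT mice (1) it was 2 by DESeq2, 0 with only the compared groups, and 0 to 1 when a mouse was left out. With age in Ercc1Δ/- mice (3) it was 2 to 3 when a mouse was left out. With DR in Ercc1Δ/- mice (1) it was 0 with sample 003 added, with only the compared groups and with all 6 groups, and 0 to 1 when a mouse was left out. For the genotype by age interaction (1) it was 0 after thinning and 1 to 2 when a mouse was left out. The cause was not tested, beyond the fewer reads after thinning and the fewer samples in the smaller fits. RLE size factors and the earlier dispersion method changed no count of called members.

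Changes of sign occurred only in uncalled values. Lox at 6 weeks was 0.001 without the sex term and -0.09 to 0.07 when a mouse was left out. After thinning Loxl4 was 0.51 between the genotypes at 22 weeks on AL, -0.13 with age and 0.44 with DR in WT mice, -0.74 for the genotype by diet interaction and 0.17 for sex, and Loxl2 was -0.01 with DR in Ercc1Δ/- mice, where Loxl3 was -0.004 with only the compared groups. When a mouse was left out, Loxl4 ran from -0.37 to 0.03 between the genotypes on AL, -0.22 to 0.04 on DR, -0.10 to 0.28 with age in WT mice and -0.07 to 0.32 for the genotype by diet interaction, Loxl1 from -0.21 to 0.01 with age in WT mice and Loxl3 from -0.04 to 0.13 with age in Ercc1Δ/- mice. With DR in Ercc1Δ/- mice Lox ran from -0.04 to 0.18, Loxl2 from -0.09 to 0.21, Loxl3 from -0.07 to 0.11 and Loxl4 from -0.22 to 0.16.

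Over all genes, the calls ranged over the alternatives that kept every mouse from 775 (thinning) to 1685 at 22 weeks on AL (1486), 998 (thinning) to 1755 on DR (1601), 345 (thinning) to 728 with age in Ercc1Δ/- mice (576), 11 (thinning) to 106 (DESeq2) with age in WT mice (29), 121 to 378 (DESeq2) at 6 weeks (211), 55 to 310 with DR in WT mice (161), 91 to 348 (DESeq2) with DR in Ercc1Δ/- mice (203), 50 (thinning) to 197 (DESeq2) for the age interaction (104), 1 to 43 for the diet interaction (12) and 21 to 52 for sex (23). The depth, 3 to 94 reads for Loxl4 and 14 to 488 for Loxl2, limits these genes most.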
